A study of Mus musculus with 46 samples.

Results

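The 28 mouse genes described here make, take up or control cholesterol: 9 early mevalonate genes, 12 late sterol genes and 7 genes of uptake and regulation. They were given as a list of symbols and joined to the Ensembl identifiers of the count tables, where all 28 were found among 55487 gene identifiers. In liver and in white adipose tissue (WAT) 27 of the 28 passed the filter on low counts. Npc1l1, the sterol importer of the gut wall, did not pass in either organ and was not tested.

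Cholesterol is built from acetyl-CoA in the cytosol and the endoplasmic reticulum. The early steps lead through mevalonate to farnesyl diphosphate, which also feeds protein prenylation, dolichol and ubiquinone, and the late steps turn squalene into lanosterol and then, by demethylation, isomerisation and reduction, into cholesterol. When sterol in the endoplasmic reticulum is low, Scap escorts the transcription factor precursor encoded by Srebf2 to the Golgi for cleavage, and the freed factor switches on genes of synthesis and uptake. Insig1 and Insig2 hold Scap back when sterol is plentiful, and Insig1 is itself a target of the factor. Liver is a main site of this synthesis, whereas fat cells hold much of their cholesterol as free sterol at the lipid droplet.

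Promoter sequence from RefSeq on GRCm38.p6 was at hand for 24 of the 28 genes, as windows running from 250 bases before to 50 bases after the start of the gene, and not for Fdft1, Sqle, Fdps and Stard4. Each window was searched on both strands for TCACNCCAC, a form of the sterol regulatory element bound by the product of Srebf2, for the related TCACCTCA, for CCAAT, for the E-box CACGTG and for GGGCGG. Windows are shown for Cyp51, Hsd17b7 and Insig1, which were called lower with PTP-r in male WAT and whose windows held TCACCTCA or CACGTG. That of Hmgcs1 is shown because it alone held TCACNCCAC. The window of Lss, also called lower in male WAT and not shown, held CCAAT and GGGCGG but none of the other motifs. The same held for the windows of Mvd, Idi1, Nsdhl and Ebp, which were called lower there too. Dhcr7, also called lower, has several windows, of which one held CACGTG, and it is not shown. Capitals mark TCACNCCAC, TCACCTCA, CCAAT and CACGTG on either strand. None of these overlapped another in the windows shown, and the remaining motif, GGGCGG, is left in lower case. The windows lie at chr5:4104648-4104947 on the minus strand for Cyp51, chr1:169969156-169969455 on the minus strand for Hsd17b7, chr5:28071162-28071461 on the plus strand for Insig1 and chr13:119690101-119690400 on the plus strand for Hmgcs1.
Cyp51: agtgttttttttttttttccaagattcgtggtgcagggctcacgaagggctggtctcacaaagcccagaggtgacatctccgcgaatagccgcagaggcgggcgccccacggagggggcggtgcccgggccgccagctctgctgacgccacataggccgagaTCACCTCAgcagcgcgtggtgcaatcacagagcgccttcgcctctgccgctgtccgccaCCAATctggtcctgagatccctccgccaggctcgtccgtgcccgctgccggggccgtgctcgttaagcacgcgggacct
Hsd17b7: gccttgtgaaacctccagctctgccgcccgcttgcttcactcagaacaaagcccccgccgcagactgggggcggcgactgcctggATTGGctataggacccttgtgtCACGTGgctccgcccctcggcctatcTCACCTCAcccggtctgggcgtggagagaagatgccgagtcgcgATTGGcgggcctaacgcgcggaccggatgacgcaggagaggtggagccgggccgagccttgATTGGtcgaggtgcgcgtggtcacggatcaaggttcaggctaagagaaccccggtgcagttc
Insig1: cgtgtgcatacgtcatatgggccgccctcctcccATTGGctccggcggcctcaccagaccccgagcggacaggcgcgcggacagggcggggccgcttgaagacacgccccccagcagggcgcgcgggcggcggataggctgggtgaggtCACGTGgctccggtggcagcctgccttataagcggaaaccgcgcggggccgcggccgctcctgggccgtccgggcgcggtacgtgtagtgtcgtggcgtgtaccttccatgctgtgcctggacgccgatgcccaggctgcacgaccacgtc
Hmgcs1: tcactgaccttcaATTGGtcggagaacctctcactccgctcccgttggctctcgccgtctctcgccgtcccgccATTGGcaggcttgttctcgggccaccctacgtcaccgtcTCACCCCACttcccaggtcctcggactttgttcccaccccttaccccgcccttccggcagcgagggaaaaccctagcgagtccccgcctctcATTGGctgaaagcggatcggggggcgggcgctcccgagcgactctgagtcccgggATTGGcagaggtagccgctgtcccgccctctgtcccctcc

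TCACCTCA stood in the windows of Cyp51 and Hsd17b7 and in those of 1.37% of all genes with a window. TCACNCCAC stood in the window of Hmgcs1 and in those of 1.44% of all genes. CCAAT occurred in 21 of the 24 genes and in 41.1% of all genes, CACGTG in 5 of the 24 (Hsd17b7, Sc5d, Dhcr7, Insig1 and Scap) and in 8.09% of all genes, and GGGCGG in 20 of the 24 and in 38.2% of all genes. A gene with several annotated starts was counted where any of its windows held the motif. These are matches of letters and do not show that a factor was bound.

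The study sequenced polyA RNA from liver and WAT of female and male wild-type C57Bl/6 mice with obesity caused by a high-fat diet, which all groups received for 21 weeks from an age of 7 weeks under a reversed light cycle. PTP-r mice were injected under the skin with 1 mg/kg of PTP-r daily for 5 weeks from week 16, and vehicle mice with phosphate-buffered saline. The labels do not spell out the name PTP-r, and the title of the series concerns a peptide of mixed chirality directed at prohibitin. There were 46 libraries, 6 per organ, sex and treatment except for male vehicle, which had 5 per organ, and no mice on another diet were analysed here. The fat depot is not named, and whether each library stands for its own mouse is not stated. The p-values set differences between groups against the spread of libraries within groups, part of which may be technical. They may therefore not speak to the spread between mice.

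Counts on genes summed to 20266425 to 57518893 per liver library and 20991069 to 32219751 per WAT library. Summed hepatocyte markers lay at 100400 to 128400 CPM (counts-per-million, scaled to library size) in liver and 125.5 to 4380 CPM in WAT, and adipocyte markers at 18.35 to 56.95 CPM in liver and 15560 to 29870 CPM in WAT, so the organ labels held. Some libraries had raised markers of other tissues and are said below to carry other tissue. The source of this RNA was not tested. Skeletal muscle, pancreas or epididymis markers passed 50 CPM and 4 times the median of the organ in 3 liver libraries (female PTP-r 1 and 11 and female vehicle 12) and in 5 WAT libraries (female PTP-r 1, 4 and 5 and male vehicle 3 and 9). Counts of members called in the PTP-r comparisons that change without these libraries are given both ways. Hepatocyte markers in WAT were not part of this rule.

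In male WAT genes of the synthesis chain and Insig1 were lower with PTP-r. Of the 27 genes tested, 9 fell and none rose at an adjusted p under 0.05 (edgeR quasi-likelihood test with Benjamini-Hochberg adjustment over all genes, which holds for every adjusted p below), where 0.873% of the 17765 genes tested in WAT were called, 0.462% as higher and 0.411% as lower. The median log2 fold change, PTP-r over vehicle, was -0.46 for the 27 genes and 0.04 for all genes tested. Both parts of the synthesis chain were involved: 6 of 12 late sterol genes and 2 of 9 early mevalonate genes fell, and of the 6 tested genes of uptake and regulation only Insig1 did. In bulk tissue, fewer cells of a type and less RNA per cell cannot be told apart.

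Of the late sterol genes, 6 passed. Lss, the enzyme that folds squalene epoxide into lanosterol (chr10:76531588-76557138 on GRCm38), had 27.4 CPM in the lowest, 41.2 CPM in the median and 44.8 CPM in the highest male PTP-r library, against 63.8, 81.5, 82.8, 94.98 and 95.3 CPM in the 5 male vehicle libraries. Every PTP-r library lay below every vehicle library, and the log2 fold change was -1.08 (SE 0.18, adjusted p = 0.0122). Cyp51, which removes the first methyl group from lanosterol (chr5:4081145-4104746), had 23.0, 27.6 and 31.7 CPM as lowest, median and highest value in male PTP-r WAT, against 42.7, 46.9, 59.0, 59.8 and 64.6 CPM in male vehicle WAT. Again the groups did not overlap, and the log2 fold change was -0.97 (SE 0.16, adjusted p = 0.0122).

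Hsd17b7 is the ketoreductase of the demethylation steps further down the chain (chr1:169949535-169969241). It ranged over 9.55, 12.1 and 13.5 CPM (lowest, median, highest) in male PTP-r WAT, against 18.7, 19.3, 21, 24.01 and 29.0 CPM in male vehicle WAT. Its log2 fold change was -0.95 (SE 0.15, adjusted p = 0.0122), with no overlap. Its partner Nsdhl, the dehydrogenase of the same complex, had 37.7 to 52.1 CPM in male PTP-r WAT and 69.3 to 98.5 CPM in male vehicle WAT, a log2 fold change of -0.90 (adjusted p = 0.0301). Dhcr7, which closes the chain by reducing the sterol ring, had 17.3 to 31.8 CPM under PTP-r and 39.2 to 60.7 CPM under vehicle (log2 fold change -0.84, adjusted p = 0.0184). Ebp, the sterol isomerase, moved least of the late genes called, with 29.9 to 35.95 CPM in male PTP-r WAT and 37.8 to 46.2 CPM in male vehicle WAT (log2 fold change -0.38, adjusted p = 0.0156). None of these 3 genes overlapped between the groups.

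The other 6 late genes did not pass. Msmo1, the methyl oxidase that starts the same demethylation, stood at a log2 fold change of -0.46 with an adjusted p of 0.0501, and Sc5d, a sterol desaturase, at -0.59 with an adjusted p of 0.0557. Sqle, the squalene epoxidase and a control point of the late chain, had 11.1, 13.3 and 24.6 CPM (lowest, median, highest) in male PTP-r WAT, against 17.4, 21.7, 22.3, 22.7 and 24.4 CPM in male vehicle WAT. PTP-r library 1 lay above all vehicle libraries and the other 5 PTP-r libraries below all of them, and the log2 fold change of -0.56 did not pass (SE 0.21, adjusted p = 0.135). Tm7sf2 and Lbr, both sterol reductases acting after Cyp51, had log2 fold changes of -0.42 and -0.02.

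Fdft1, the squalene synthase at the head of the late chain, was the only late gene with a value above 0 in male WAT (log2 fold change 0.34, adjusted p = 0.286), with 40.3, 51.6 and 88.1 CPM (lowest, median, highest) with PTP-r, against 32.8, 40.5, 46.8, 47.3 and 54.0 CPM with vehicle. Its exons overlap those of Ctsb on the opposite strand, a gene with a median of 41921 counts. The counts used are those of the strand of the gene. In male PTP-r WAT the median was 1311 on the strand of Fdft1 and 1123 on the other, and in male vehicle WAT 1161 and 1873, with the other strand higher in 6 of the 11 male WAT libraries. In the 12 female WAT libraries the strand of Fdft1 was always the higher. The part of the neighbour in the values of Fdft1 was not tested.

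Among the early genes, Mvd and Idi1 passed. Mvd, which decarboxylates mevalonate diphosphate, gave 9.64, 10.03 and 10.97 CPM (lowest, median, highest) in male PTP-r WAT, against 15.4 CPM in the lowest, 20.9 CPM in the median and 23.1 CPM in the highest male vehicle library. The 6 PTP-r libraries lay close together and all below the vehicle libraries (log2 fold change -0.99, SE 0.17, adjusted p = 0.0156). Idi1, which interconverts the building blocks that Mvd delivers, had 6.77 to 8.79 CPM in the PTP-r group and 11.04 to 14.3 CPM in the vehicle group (log2 fold change -0.75, adjusted p = 0.0156), also without overlap. Hmgcs1, the cytosolic synthase ahead of mevalonate, had 222.9 to 447.1 CPM under PTP-r and 456.5 to 551.0 CPM under vehicle. Those ranges did not overlap either, yet its log2 fold change of -0.54 did not pass (adjusted p = 0.124).

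Pmvk, the second mevalonate kinase, had a log2 fold change of -0.64 (adjusted p = 0.0530), Mvk, the first, one of -0.32 (adjusted p = 0.136), and Acat2, the thiolase that joins acetyl-CoA units, one of -0.33 (adjusted p = 0.276). Fdps, the farnesyl diphosphate synthase, stood at -0.93 (adjusted p = 0.0901). It shares exons with the annotated gene Gm43738 on its own strand, and its median count in WAT was 34. Aacs, which activates acetoacetate, and Ggps1, which makes the geranylgeranyl donor for prenylation, had log2 fold changes of -0.15 and 0.04.

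Insig1 had the largest fold change of the 27 genes in male WAT. It gave 163.7, 221.1 and 272.7 CPM (lowest, median, highest) with PTP-r, against 400.7, 405.9, 517.9, 546.5 and 563.1 CPM with vehicle, with no overlap (chr5:28071363-28078662, log2 fold change -1.15, SE 0.22, adjusted p = 0.0216). Srebf2 itself had 71.6, 86.2 and 119.0 CPM with PTP-r, against 82.9, 85.1, 85.8, 103.2 and 110.4 CPM with vehicle. Its log2 fold change was -0.08 (SE 0.11, adjusted p = 0.703). The groups overlapped throughout, and a transcript level says nothing of how much of the precursor was cleaved.

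Scap had 68.0 to 76.3 CPM in male PTP-r WAT and 62.7 to 66.1 CPM in male vehicle WAT, a small difference without overlap that did not pass (log2 fold change 0.14, adjusted p = 0.109). Stard4, a carrier of sterol between membranes, had a log2 fold change of -0.34 (adjusted p = 0.0627), Insig2 one of 0.02 and Mylip, a ubiquitin ligase that marks lipoprotein receptors for degradation, one of 0.26 (adjusted p = 0.260). Counted over the 27 genes, 14 had all male PTP-r libraries below all male vehicle libraries and 1, Scap, had them above, where 2.33% of all genes tested lay below without overlap and 1.77% above.

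**Figure D1:**
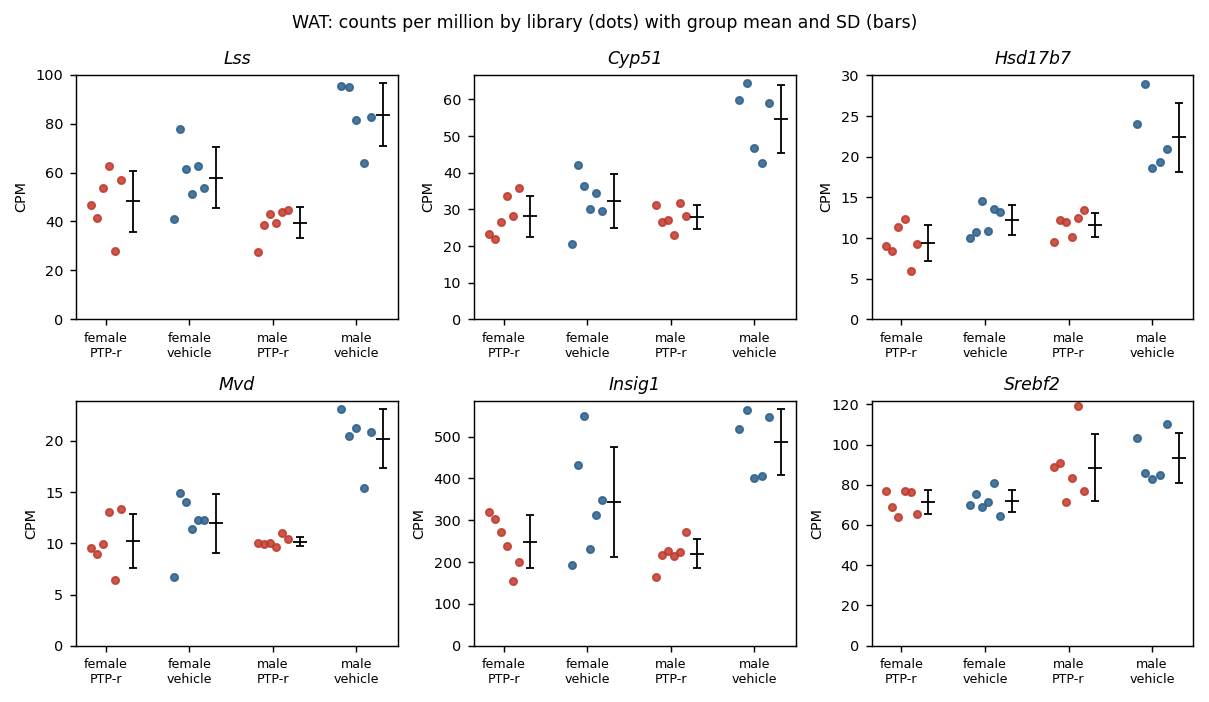
CPM (y axis) in each WAT library (dots) by group (x axis) for Lss, Cyp51, Hsd17b7, Mvd, Insig1 and Srebf2, with bars for the mean and SD. In the first 5 genes the male PTP-r dots lie below all male vehicle dots, and in Srebf2 the male groups overlap.

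The calls in male WAT rest on few libraries. Without male vehicle library 4 none of the 9 genes passed, and without male vehicle library 3, which carried muscle markers, 4 did; leaving out any other single library of the 23 in WAT gave 7 to 12. Without the 5 WAT libraries that carried other tissue, 3 male vehicle libraries remain, and no member and no gene of the 18717 then tested passed in male WAT by edgeR. The unadjusted p was then 2.59e-05 for Cyp51 and 6.94e-05 for Hsd17b7 (adjusted p = 0.144 for both), with log2 fold changes of -0.99 for Cyp51, -1.03 for Lss, -0.99 for Hsd17b7 and -1.20 for Insig1. Without the 3 male WAT libraries with the most epididymis markers (PTP-r 1 and 2 and vehicle 9), 2 members passed, Cyp51 and Hsd17b7. Over all fits that left out 1 library, the log2 fold change of Cyp51 stayed between -1.05 and -0.90, that of Insig1 between -1.23 and -1.08 and that of Mvd between -1.08 and -0.94.

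The male WAT groups overlapped in their markers of cell types. Summed adipocyte markers were 15560 to 23680 CPM and 18880 to 23000 CPM, macrophage markers 759.4 to 2996 CPM and 1123 to 2801 CPM, endothelial markers 683.6 to 1109 CPM and 915.9 to 1161 CPM, and epididymis markers 0.266 to 28.97 CPM and 1.282 to 64.02 CPM, each in male PTP-r WAT and then in male vehicle WAT. B and plasma cell markers were 9.905 to 555.1 CPM in male PTP-r WAT, with a median of 28.19 CPM, and 13.27 to 63.46 CPM in male vehicle WAT. The 555.1 CPM belonged to PTP-r library 7, which stayed in the fits without libraries that carried other tissue. Hepatocyte markers were 125.5 to 1262 CPM in male PTP-r WAT and 198.4 to 637.3 CPM in male vehicle WAT. The part of tissue make-up in the lower values of the pathway was not tested.

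In female WAT no member passed, in a comparison where none of the 17765 genes did (0% called, 2909 genes at an unadjusted p under 0.05 in edgeR). DESeq2 called 307 genes higher and 287 lower there and voom 172 and 199, with no member among them. Of the 27 values, 20 were below 0 and 7 had an unadjusted p under 0.05, with a median log2 fold change of -0.18 against 0.01 for all genes. Insig1 had 153.7, 254.7 and 320.1 CPM (lowest, median, highest) in female PTP-r WAT, against 192.4, 330.3 and 548.8 CPM in female vehicle WAT, and its log2 fold change was -0.47 (SE 0.21, adjusted p = 0.274). Lss had 27.8, 50.3 and 62.6 CPM with PTP-r, against 41.1, 57.4 and 77.7 CPM with vehicle (log2 fold change -0.26, adjusted p = 0.458). For each of the 27 genes the female groups overlapped, against 1.25% of all genes that did not. Summed adipocyte markers were 17730 to 26940 CPM in female PTP-r WAT and 23400 to 29870 CPM in female vehicle WAT, and macrophage markers 339.2 to 644.2 CPM and 487.4 to 1152 CPM. Hepatocyte markers were 1453 to 4380 CPM (median 2794) in female PTP-r WAT and 960 to 2697 CPM (median 1815) in female vehicle WAT. The part of all these markers in the values of the pathway was not tested. Female vehicle library 2 was the lowest of its group for 18 of the 27 genes and female PTP-r library 9 for 15.

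The difference between the effects in the sexes was tested directly in WAT and no member passed, nor any other gene (0%, with 1520 genes at an unadjusted p under 0.05). For Cyp51 the female effect minus the male effect was 0.78 on the log2 scale (SE 0.22, adjusted p = 0.360), and for Lss 0.82 (SE 0.25, adjusted p = 0.395). That the genes passed in males and not in females therefore does not show that the sexes differed.

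Taken as the mean of both sexes, 15 of 27 members fell in WAT and none rose, where 7.08% of all genes were called, 3.65% as higher and 3.43% as lower (947 genes higher and 541 lower by library size without scaling factors, against 649 and 609). The 15 were Hmgcs1, Mvk, Pmvk, Mvd and Idi1 of the early genes, Lss, Cyp51, Msmo1, Nsdhl, Hsd17b7, Ebp, Sc5d and Dhcr7 of the late genes, and Insig1 and Stard4. Log2 fold changes among them ran from -0.81 for Insig1 (SE 0.15, adjusted p = 0.00677) to -0.25 for Ebp (SE 0.05, adjusted p = 0.00677), and Hsd17b7 had the smallest adjusted p (log2 fold change -0.66, SE 0.11, adjusted p = 0.00393). Srebf2, Scap and Insig2 stood at -0.04, 0.08 and -0.01 and did not pass. Leaving out single libraries gave 11 to 16 calls. Of these 23 fits, the call of Hmgcs1 was lost in 16 and that of Mvk in 13. Leaving out the 5 libraries with other tissue gave none among the members or among all genes, with log2 fold changes of -0.63 for Lss and -0.70 for Hsd17b7. The mean includes the male libraries and is no separate evidence.

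**Figure D2:**
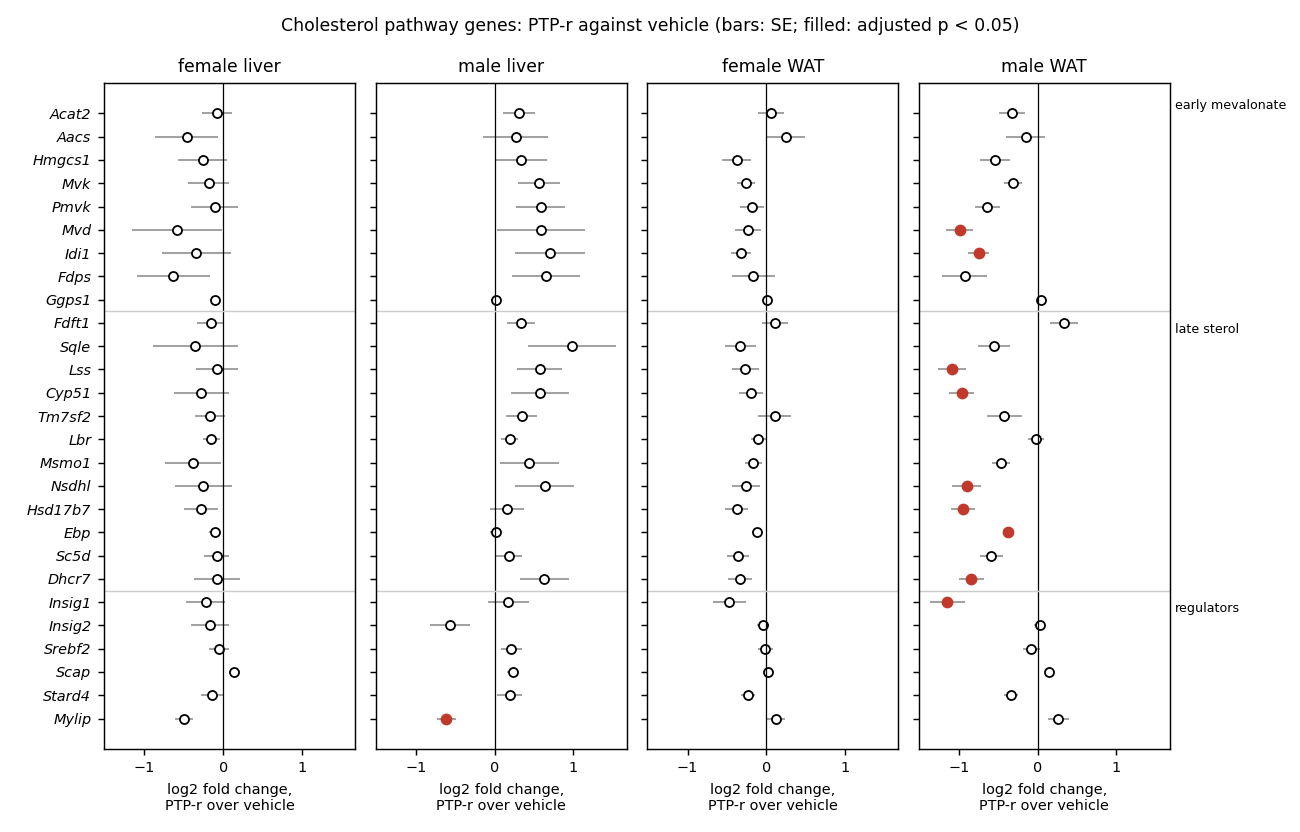
Log2 fold change, PTP-r over vehicle, on the x axis for each of the 27 tested genes (rows, grouped as early mevalonate, late sterol and regulators) in female liver, male liver, female WAT and male WAT, with SE bars and filled dots for an adjusted p under 0.05. The 9 filled dots in male WAT all lie left of 0, and the single filled dot in male liver is Mylip.

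In male liver no synthesis enzyme passed, and the gene that did was Mylip. Of 27 members, 1 passed in male liver, where 7.68% of the 15892 genes tested were called, 5.23% as higher and 2.45% as lower (946 genes higher and 198 lower by library size without scaling factors, against 831 and 390). Mylip (chr13:45389742-45412022) had 3.94, 4.97 and 5.56 CPM (lowest, median, highest) in male PTP-r liver, against 6.95, 7.20, 7.25, 7.65 and 8.42 CPM in male vehicle liver. All male PTP-r libraries were below all vehicle libraries, which held for 2.13% of all genes (log2 fold change -0.62, SE 0.12, adjusted p = 0.00184).

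In female liver no member passed, where 0.164% of genes did; 1378 genes and 1 member, Mylip, had an unadjusted p under 0.05. Mylip had 6.09, 7.09 and 8.38 CPM with PTP-r, against 7.69, 9.45 and 13.9 CPM with vehicle, with overlapping groups (log2 fold change -0.49, SE 0.11, adjusted p = 0.0693). DESeq2 called Mylip lower in this comparison, and no other member. As the mean of both sexes Mylip fell with a log2 fold change of -0.56 (SE 0.08, adjusted p = 0.000148), where 7.58% of genes were called and 2.4% were called lower. Its sex difference did not pass (0.13, SE 0.17, adjusted p = 0.903, with 0.107% of genes called).

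Scap rose in liver as the mean of both sexes, by a small amount (log2 fold change 0.19, SE 0.05, adjusted p = 0.0272), where 5.18% of genes were called higher. It had 156.1, 176.4 and 193.6 CPM in female PTP-r liver, against 146.7, 160.0 and 166.2 CPM in female vehicle liver. In males the values were 158.4, 174.4 and 191.4 CPM with PTP-r (lowest, median, highest in each case), against 131.7, 139.6, 139.7, 149.6 and 182.9 CPM with vehicle. The groups overlapped in each sex, and the call was lost without male PTP-r library 11 or without male vehicle library 4, 10 or 12.

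Macrophage markers stood at 77.28 to 166.3 CPM in male PTP-r liver and 38.42 to 78.2 CPM in male vehicle liver, and at 130.5 to 201.5 CPM in female PTP-r liver and 97.83 to 188.9 CPM in female vehicle liver. Endothelial markers were 37.86 to 57.0 CPM in male PTP-r liver and 53.73 to 68.73 CPM in male vehicle liver, and 45.14 to 64.73 CPM in female PTP-r liver and 71.44 to 100.2 CPM in female vehicle liver. In male liver 2 of 5 macrophage markers (Cd68 and Lyz2) rose, where 5.23% of all genes were called higher. Adgre1, Csf1r and Cd14 were not called higher. Of 4 endothelial markers 2 (Pecam1 and Kdr) fell, where 2.45% of all genes were called lower, and Cdh5 and Tie1 were not called lower. Their part in the values of Mylip and Scap was not tested.

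No synthesis enzyme passed in liver, where libraries of 1 group lay far apart. In male liver all 21 synthesis genes had values above 0 and none passed, with a median log2 fold change of 0.56 for the early and 0.39 for the late genes, against 0.00 for all genes. Sqle shows the spread. It had 64.4, 97.4 and 124.0 CPM (lowest, median, highest) in male PTP-r liver, against 15.4, 22.5, 44.5, 70.7 and 90.5 CPM in male vehicle liver (log2 fold change 0.98, SE 0.56, adjusted p = 0.341). The vehicle libraries spanned 5.87-fold and the PTP-r libraries 1.93-fold, and the groups overlapped. Srebf2 was steadier, with a median of 86.25 CPM in male PTP-r liver and 77.8 CPM in male vehicle liver and overlapping groups (log2 fold change 0.21, adjusted p = 0.397).

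In female liver the same enzymes had values below 0, again without passing, and the sign of most of them depended on 1 library. Sqle had 5.31, 14.9 and 38.7 CPM in female PTP-r liver, against 6.29, 14.52 and 73.1 CPM in female vehicle liver (log2 fold change -0.35, SE 0.54, adjusted p = 0.927). The 73.1 CPM belonged to vehicle library 12, which was the highest of its group for 23 of the 27 genes and which carried 340.7 CPM of skeletal muscle markers. With it 26 of 27 members were below 0 in female liver (median -0.17), and without it 9 were (median 0.09), with Sqle at 0.54 and Mvd at 0.52. Mylip then passed in female liver (log2 fold change -0.56, adjusted p = 0.0272).

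The same libraries were highest or lowest for many genes of the chain. In female PTP-r liver, library 8 was highest for 20 of the 27 genes and library 4 lowest for 22, and in male vehicle liver library 9 was highest for 17 and library 12 lowest for 19. Within female vehicle liver the ratio of the highest to the lowest library was 16 for Mvd and 11.6 for Sqle, against 1.25 for Ggps1, 1.17 for Ebp and 1.13 for Scap. In male vehicle WAT the median ratio was 1.23 for the early and 1.41 for the late genes, against 2.4 and 2.23 in male vehicle liver. The sex difference of the PTP-r effect in liver did not pass for any member, with Sqle at -1.33 (SE 0.77, adjusted p = 0.636), and at -0.44 without female vehicle library 12.

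**Figure D3:**
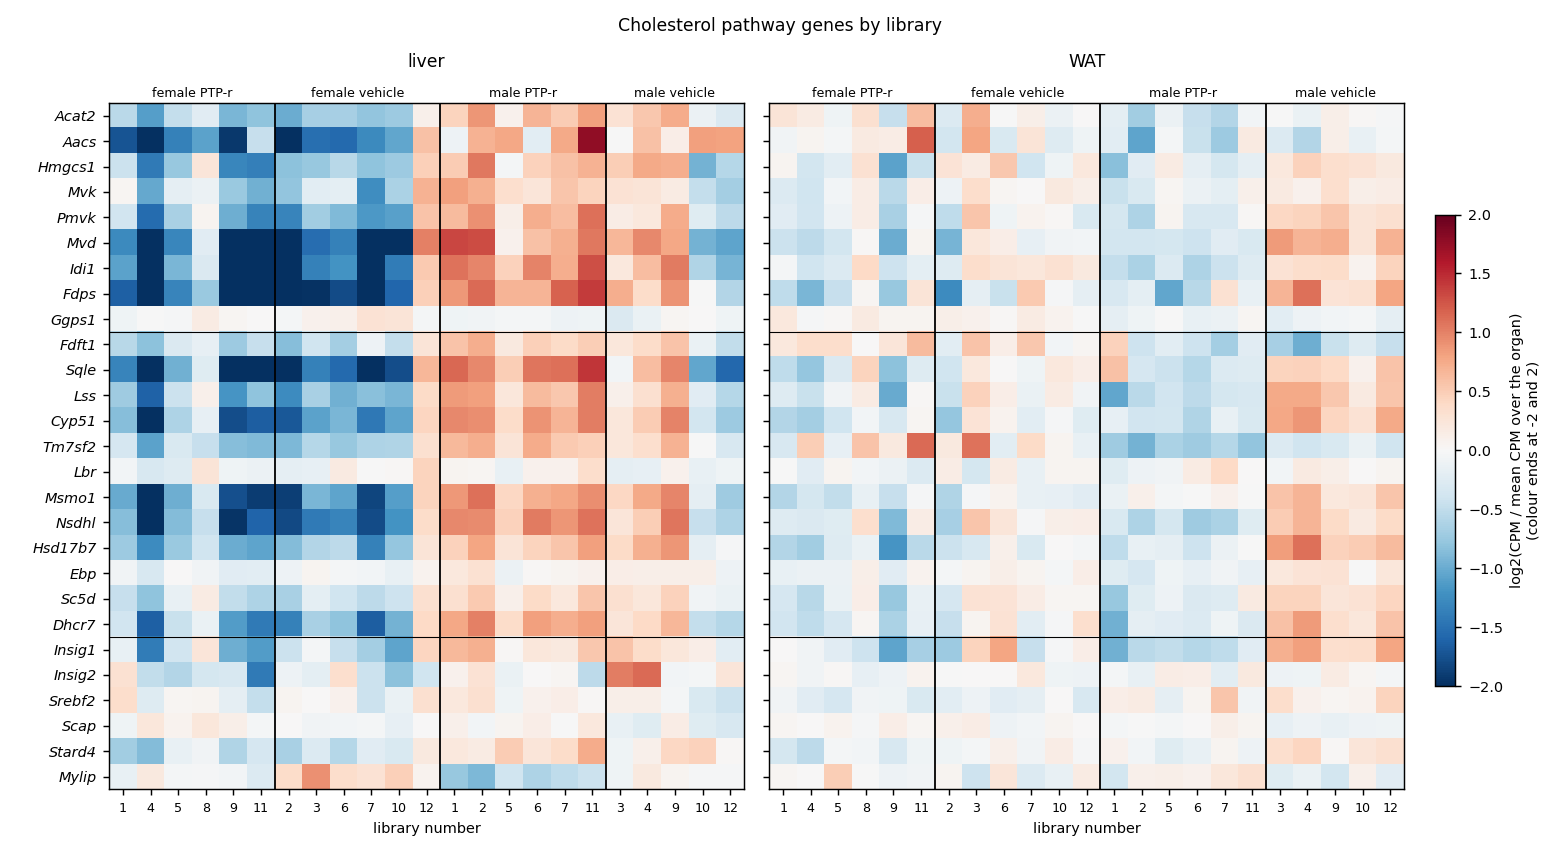
Each cell is the log2 ratio of the CPM of a gene (rows) in a library (columns, by group and library number) to the mean CPM of that gene over the organ, with colours ending at -2 and 2. In liver whole columns are dark or light across most enzymes, with female vehicle library 12 apart from its group, and in male WAT the PTP-r columns are bluer than the vehicle columns for most enzymes.

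**Figure D4:**
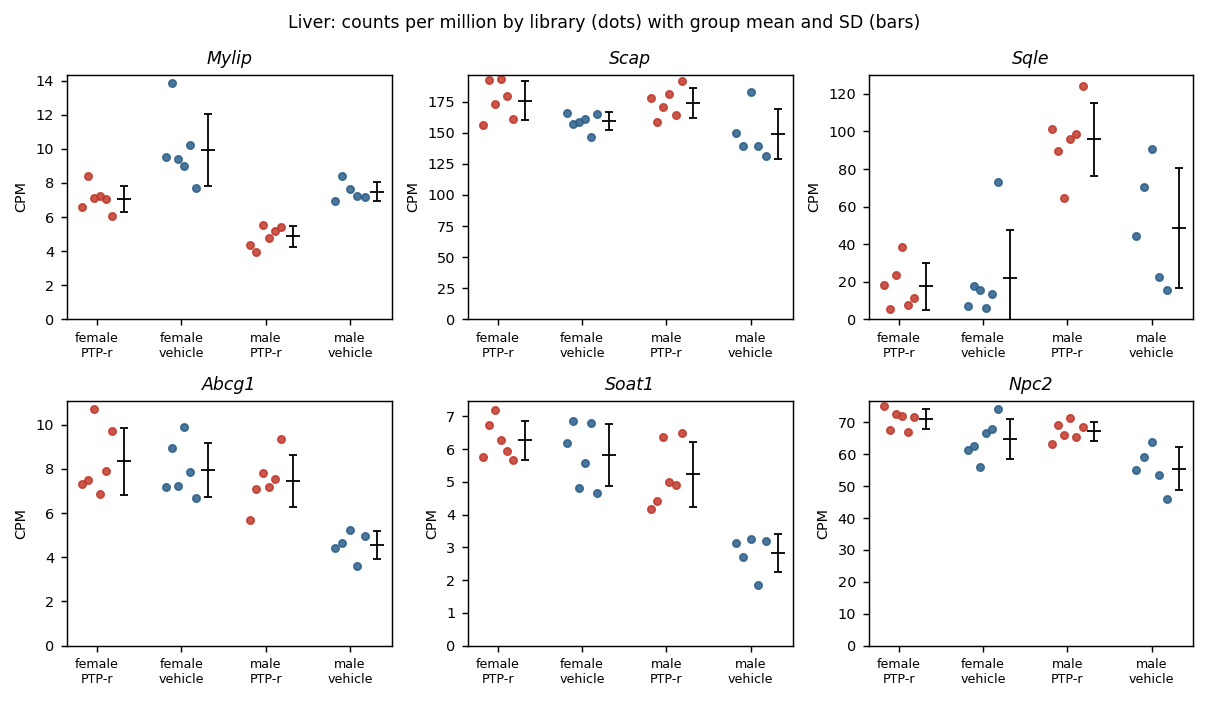
CPM (y axis) in each liver library (dots) by group (x axis) for Mylip, Scap, Sqle, Abcg1, Soat1 and Npc2, with bars for the mean and SD. Male PTP-r dots lie below all male vehicle dots for Mylip, and above them for Abcg1 and Soat1.

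The effect of PTP-r in liver minus that in WAT, as the mean of both sexes and fitted over all 46 libraries, passed for 3 of 27 members, where 5.39% of 19135 genes did, 2.99% with a higher and 2.4% with a lower value in liver. It was 0.90 for Lss (SE 0.24, adjusted p = 0.0223) and 0.85 for Dhcr7 (SE 0.25, adjusted p = 0.0366), which had log2 fold changes of 0.25 and 0.28 in liver, neither called, and of -0.67 and -0.59 in WAT. It was -0.77 for Mylip (SE 0.13, adjusted p = 0.000314), which had -0.56 in liver and 0.19, not called, in WAT. In male liver Lss had 80.7, 114.4 and 140.8 CPM (lowest, median, highest) with PTP-r, against 46.4, 59.0, 74.2, 85.9 and 113.2 CPM with vehicle, and in female liver 22.4, 40.6 and 73.8 CPM with PTP-r, against 28.9, 37.6 and 89.8 CPM with vehicle. Dhcr7 had 101.6, 136.4 and 157.2 CPM in male PTP-r liver, against 52.9, 56.8, 92.5, 103.3 and 125.1 CPM in male vehicle liver, so that in liver the male groups of both genes overlapped. In WAT, Mylip had 50.9, 70.8 and 81.5 CPM in male PTP-r libraries, against 50.7, 55.5, 55.7, 59.7 and 69.9 CPM in male vehicle libraries, also with overlap. Over all members the median difference was 0.45, and over all genes -0.06. Without liver female vehicle library 12 the count was 13, with Mvd, Idi1, Sqle, Cyp51 and Insig1 among the genes added, and leaving out any other library gave 2 to 5. Without all 8 libraries that carried other tissue, library 12 included, 4 members passed, Lss, Dhcr7 and Insig1 with a higher and Mylip with a lower value in liver. Without the 3 male WAT libraries with the most epididymis markers 2 members passed, 1 with a higher and 1 with a lower value in liver. Liver and WAT libraries may come from the same mice, which the labels do not state.

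Between the organs the levels under vehicle depend on the scale. With scaling factors that centre most genes, which adds 0.88 on the log2 scale to the median of all genes over plain library size, liver was higher than WAT for 19 members and lower for 3 (Ggps1, Lbr and Mylip), where 84% of all genes were called, 40.2% higher and 43.8% lower. By library size alone, close to the scale of the CPM values given here, 14 members were higher in liver and 8 lower, with 3583 genes higher and 13567 lower. On both scales Idi1, Fdps, Fdft1, Sqle, Cyp51, Tm7sf2, Msmo1, Hsd17b7, Ebp, Sc5d, Dhcr7, Insig2, Scap and Stard4 were called higher in liver, 9 of them late genes. The scaled values of Acat2, Mvd, Lss, Insig1 and Srebf2 were called above 0 and their values by library size lay below 0 without passing, and Aacs, Hmgcs1, Mvk, Pmvk and Nsdhl were called lower in liver by library size alone.

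Stard4 had the largest scaled log2 ratio, liver over WAT (3.86, SE 0.10, adjusted p = 1.46e-31, and 2.97 by library size), with 157.8 ± 26.4 CPM in male vehicle liver and 18.7 ± 1.92 CPM in male vehicle WAT (SD, n = 5 each). Mylip had the lowest (-1.92, SE 0.09, adjusted p = 1.34e-22, and -2.81 by library size), with 7.50 ± 0.58 CPM in male vehicle liver and 58.3 ± 7.22 CPM in male vehicle WAT (SD, n = 5 each). Relative to all genes, whose scaled median was -0.09, the median of the late genes was 2.05 and that of the early genes 0.24.

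Per kilobase of exon, Sc5d, Insig1, Ebp and Hmgcs1 led in male vehicle liver, at 156.8, 149.5, 82.5 and 81.8 CPM per kilobase, and Insig1, Hmgcs1 and Sc5d led in male vehicle WAT, at 157.4, 107.1 and 47.4 CPM per kilobase. In liver the SDs of Sc5d and Insig1 exceed the distance between them. Fdps was lowest of the tested members in WAT (0.55 CPM per kilobase in male vehicle), with the exon overlap given above. Npc1l1 was at or below 3 counts in each liver library and between 1 and 24 counts in each WAT library, with 0.02 ± 0.02 CPM in male vehicle liver and 0.11 ± 0.04 CPM in male vehicle WAT (SD, n = 5 each).

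**Figure D5:**
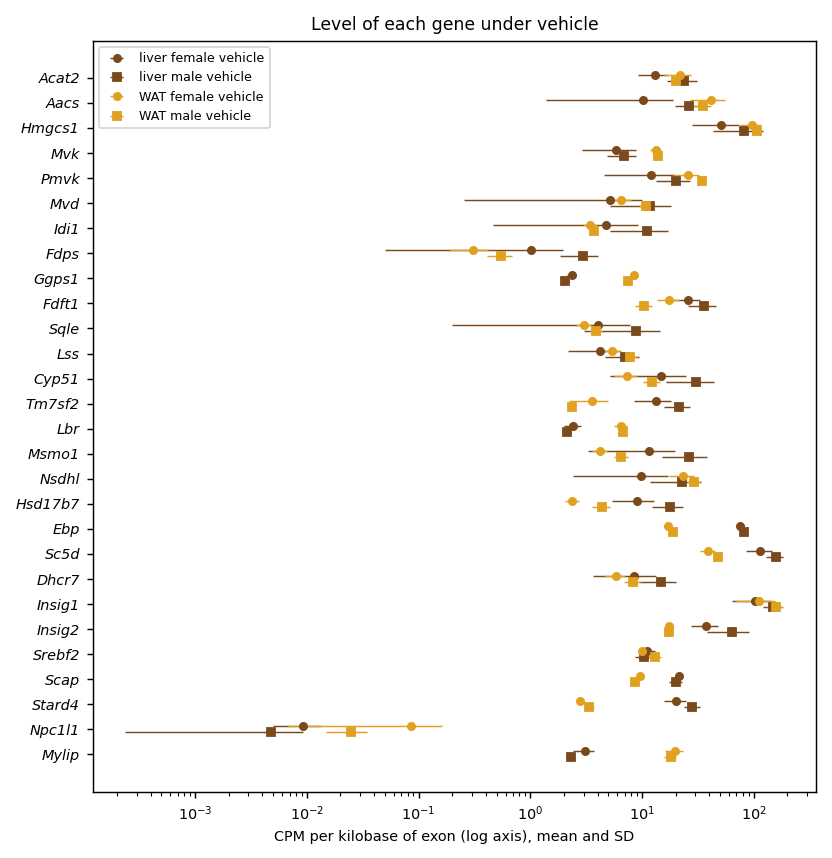
Mean level of each gene in CPM per kilobase of exon (log x axis, SD bars) in vehicle libraries of liver and WAT, females as circles and males as squares. With CPM scaled within each organ only, most late sterol genes lie further right in liver than in WAT. In both sexes Aacs, Hmgcs1, Mvk, Pmvk, Ggps1, Lss, Lbr, Nsdhl, Insig1, Npc1l1 and Mylip lie further left in liver. For Acat2, Mvd and Srebf2 the side depends on the sex.

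Under vehicle, female liver was lower than male liver for 15 members and higher for Ggps1 and Mylip, where 36.7% of genes were called, 19.3% as higher and 17.4% as lower. Hsd17b7 had 46.3 ± 18.6 CPM in female vehicle liver (SD, n = 6) and 90.4 ± 28.1 CPM in male vehicle liver (SD, n = 5), a log2 ratio, female over male, of -0.97 (SE 0.22, adjusted p = 0.00150). No member was without overlap between the sexes in liver, where 18.8% of genes were. By library size without scaling factors, which puts the median of all genes at 0.13 and not 0.02, 4509 genes were higher and 1461 lower, and 3 members were higher and 8 lower. Without female vehicle library 12, 22 members passed. The count fell to 10 when only the 2 vehicle groups were fitted and to 9 without male vehicle library 3 or 9. Macrophage markers were 97.83 to 188.9 CPM in female and 38.42 to 78.2 CPM in male vehicle liver. Endothelial markers were 71.44 to 100.2 CPM in female and 53.73 to 68.73 CPM in male vehicle liver. The part of tissue make-up in these calls was not tested.

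In WAT, female vehicle was lower than male vehicle for 9 members and higher for Ggps1, Fdft1 and Scap, where 26.9% of genes were called, 13.6% as higher and 13.3% as lower (1759 genes higher and 2872 lower by library size without scaling factors, against 2420 and 2367). Hsd17b7 (log2 ratio -0.88, SE 0.15, adjusted p = 0.000389), Msmo1 (-0.63, SE 0.11, adjusted p = 0.000432) and Cyp51 (-0.76, SE 0.16, adjusted p = 0.00123) were the late genes furthest past the threshold, and Srebf2 was lower too (-0.38, SE 0.11, adjusted p = 0.0109). For 7 members the sexes did not overlap, 5 lower and 2 higher in females, where 19.4% of genes did not, 10.1% lower and 9.22% higher. These comparisons and the effect of PTP-r in male WAT share the 5 male vehicle libraries: Hsd17b7 had 11.6 ± 1.47 CPM in male PTP-r WAT and 12.2 ± 1.84 CPM in female vehicle WAT (SD, n = 6 each), against 22.4 ± 4.21 CPM in male vehicle WAT (SD, n = 5). Without the libraries with other tissue 4 members passed, all lower in females. The sexes also differed in summed markers, given here for female and then male vehicle WAT. Adipocyte markers were 23400 to 29870 and 18880 to 23000 CPM, and macrophage markers 487.4 to 1152 and 1123 to 2801 CPM. Hepatocyte markers were 960 to 2697 and 198.4 to 637.3 CPM, and epididymis markers 0.1532 to 0.5196 and 1.282 to 64.02 CPM. The part of tissue make-up in these calls was not tested.

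Few genes next to the pathway passed. In male WAT, where 0.873% of all genes were called, none of the 8 genes of isoprenoid branches and none of the 10 genes of precursor cleavage and sterol sensing passed, with median log2 fold changes of 0.00 and 0.01, and 1 of 16 genes of sterol export, storage and oxysterols did. That gene was Cyp27a1, which hydroxylates the side chain of cholesterol, with 77.4 ± 8.94 CPM in male PTP-r WAT (SD, n = 6) and 55.01 ± 6.61 CPM in male vehicle WAT (SD, n = 5), a log2 fold change of 0.49 (SE 0.09, adjusted p = 0.0184). In female WAT it had 56.8 ± 4.30 CPM under PTP-r and 66.0 ± 6.50 CPM under vehicle (SD, n = 6 each), and a log2 fold change of -0.22 that did not pass (adjusted p = 0.221). As the mean of both sexes in WAT, where 7.08% of all genes were called, 1 gene of each list passed, a share near that background for lists of 8, 10 and 16 genes. Pdss2 of ubiquinone synthesis rose (0.24, adjusted p = 0.0452), as did Nr1h2, which encodes a receptor for oxysterols (0.16, adjusted p = 0.0127), and Erlin2, an endoplasmic reticulum protein that takes part in sterol-dependent degradation, fell (-0.17, adjusted p = 0.00789). Without the libraries that carried other tissue no gene passed in either of these comparisons, so the calls of Cyp27a1, Pdss2, Nr1h2 and Erlin2 were lost, and that of Cyp27a1 also without male vehicle library 4.

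In male liver 3 of 15 tested genes of export, storage and oxysterols rose and none fell, where 5.23% of all genes were called higher and 2.45% lower. Abcg1, an exporter of cholesterol, had 7.44 ± 1.18 CPM with PTP-r (SD, n = 6) and 4.57 ± 0.64 CPM with vehicle (SD, n = 5), a log2 fold change of 0.71 (SE 0.14, adjusted p = 0.00171). Soat1, which esterifies cholesterol, had 5.23 ± 0.98 CPM with PTP-r (SD, n = 6) and 2.83 ± 0.59 CPM with vehicle (SD, n = 5), a log2 fold change of 0.89 (SE 0.15, adjusted p = 0.000435). Npc2, a lysosomal carrier of cholesterol, had a log2 fold change of 0.28 (SE 0.07, adjusted p = 0.0165). All 3 are also expressed by macrophages, of whose 5 markers Cd68 and Lyz2 rose in the same libraries (log2 fold changes 1.26 and 1.28, adjusted p = 0.000378 and 0.000182), and the part of these cells in the result was not tested. None of the isoprenoid, cleavage or sensing genes passed in male liver.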

How the data were processed

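PolyA RNA counts from 46 libraries of liver and WAT were used. The deposited files hold counts, whole reads per gene, made by the authors with STAR 2.4.0i, HTSeq and mm10, per the submitters' processing notes. The annotation release, the kit and its strandedness were not given in the sources used here. Of the columns of counts, column 4 was used because it held 96.0% to 96.5% of both stranded columns. Reads that name no gene (21.0% to 28.9% of a liver and 18.4% to 28.7% of a WAT library) stayed out of library sizes and tests. Of 55487 identifiers, 55141 matched GENCODE M21 on GRCm38, the build also named mm10.

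All 4 groups of an organ shared a fit in edgeR 4.0.16 (R 4.3.3): the quasi-likelihood test, 2-sided, with TMM scaling, on genes that passed its filter (minimum count 10, total 15). This kept 15892 genes in liver, 17765 in WAT and 19135 in a fit of both. Benjamini-Hochberg adjusted p-values over all genes under 0.05 passed. CPM use library sizes scaled within an organ, fold changes are log2, and values are mean ± SD or single libraries. CPM per kilobase divides by the union of exons in GENCODE. The mean of the sexes weights both sexes equally.

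Alternatives were DESeq2 1.42.0, voom with quality weights (limma 3.58.1), DESeq2 size factors, 2 other filters, unstranded counts, only the groups compared, low and high library numbers as a term, 2 replicate blocks, leaving out each library, and a fit without the libraries that carried other tissue. Leaving out the 3 male WAT libraries with the most epididymis markers, and library size without scaling factors, were chosen after seeing the data. Values by library were given for members past the threshold in a PTP-r comparison (in full for up to 4 of the smallest p) and for Srebf2, Insig1 and Sqle, with Fdft1, Scap and Hmgcs1 added after their values were seen; other lists were given as counts with values for genes that passed. The members, lists and this rule were chosen with earlier results of these data known. Some genes of the pathway are not reported here. Counts of all 110 within-group pairs differed beyond sampling noise (chi-square over degrees of freedom 12.5 to 155). The fits were also run on simulated counts, drawn independently for each gene, without a sex difference or shifts shared by pathway genes within a library. That simulation cannot show whether the calls reported here hold.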

Additional observations from a re-analysis of the deposited data

Results flagged for a closer look

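In groups of 5 or 6 libraries, the highest or lowest library stood apart from the rest in 29 of 224 combinations of gene and group. The measure was the share of the range that its gap takes (Dixon's 95% critical value). For independent and normally distributed values chance alone gives about 1 in 20, or 11.2. Genes of the chain moved together within libraries, so 11.2 is only a rough guide here. Female vehicle library 12 of liver accounts for 14 of the 29, being the highest each time. It had 53.6 CPM for Acat2, 106 for Aacs, 442 for Hmgcs1, 46.8 for Pmvk, 34.9 for Mvd, 47.1 for Idi1 and 13.4 for Fdps. Of the late genes it had 73.1 CPM for Sqle, 89.8 for Lss, 151 for Cyp51, 101 for Tm7sf2, 171 for Msmo1, 70.1 for Nsdhl and 104 for Dhcr7. The other libraries of that group reached at most 6.83 CPM for Mvd and 18 CPM for Sqle. The library also had 340.7 CPM of skeletal muscle markers, and the part of these in its values was not tested.

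In liver, male PTP-r library 11 was high for Aacs (243 CPM) and male vehicle library 12 low for Ebp (169 CPM). In male WAT, PTP-r library 1 was high for Fdft1 (88.1 CPM) and Sqle (24.6 CPM) and low for Lss (27.4 CPM) and Dhcr7 (17.3 CPM), and vehicle library 10 was low for Ebp (37.8 CPM). In female PTP-r WAT, library 11 was high for Aacs (346 CPM), library 8 for Sqle (22.4 CPM) and library 5 for Mylip (92.2 CPM). In female vehicle WAT, library 3 was high for Acat2 (84.4 CPM) and Tm7sf2 (27.1 CPM), library 7 for Insig2 (70.3 CPM) and library 12 for Npc1l1 (1.06 CPM), and library 2 was low for Idi1 (8.83 CPM).

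The effect of PTP-r differed between liver and WAT in the test of that difference for Lss (0.90 on the log2 scale), Dhcr7 (0.85) and Mylip (-0.77). In that test 5.39% of 19135 genes passed. The number of members that passed ran from 2 to 13 when single libraries were left out.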

How the results depend on the processing

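Counts are members called of 27. In male WAT, 9 were called in the reported fit (of 82 genes higher and 73 lower in all), 14 by DESeq2 (of 679 and 456), 16 by voom (15 lower, 1 higher, of 615 and 505), 0 without libraries with markers of other tissues, 2 without the 3 libraries with the most epididymis markers, 0 with a replicate block by label number, and 0 to 12 when each library was left out (0 without vehicle 4, 4 without vehicle 3). For the mean of the sexes in WAT, 15 became 0 without libraries with other tissue, 10 with the replicate block and 11 to 16 with each library left out. In male liver, 1 became 2 with voom, with library size in place of scaling factors and with low and high library numbers as a term, 0 with the replicate block, and 1 to 2 with libraries left out. For the mean of the sexes in liver, 2 became 1 without an expression filter, 1 with the replicate block, and 1 to 2 with libraries left out. In female liver, 0 became 1 with DESeq2 and 0 to 1 with libraries left out (1 without vehicle 12), and in female WAT 0 to 1 (1 without PTP-r 8). The sex difference of the effect stayed at 0 in both organs. The organ difference went from 3 to 7 with DESeq2, 5 with the filter of 1 CPM, 6 with a replicate block by the number shared by liver and WAT, and 2 to 13 with libraries left out. Females against males under vehicle went from 17 to 10 in liver with only the groups compared, 11 with library size in place of scaling factors, and 9 to 22 with libraries left out, and in WAT from 12 to 4 without libraries with other tissue and 8 to 13 with libraries left out. Liver against WAT gave 21 to 23 with libraries left out, against 22, and 22 by library size, where the log2 ratio changed sign for Acat2 (-0.23), Hmgcs1 (-0.65), Mvd (-0.086), Lss (-0.23), Nsdhl (-0.78), Insig1 (-0.084) and Srebf2 (-0.076), by construction, since the scaling adds 0.88 to all genes. No other called value changed sign. In female liver 17 of 27 values, none called, changed sign without vehicle 12. The cause of these changes was not tested.

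The library numbers were not taken to pair the libraries, since not every pair correlated over 0.1. This rule cannot show that the libraries were unpaired. By the labels, liver and WAT libraries of the same sex and number had the same treatment. Their deviations correlated at -0.09 to 0.23, over 0.1 in 5 of 23 pairs. Of the 23 liver libraries, 10 matched best the WAT library of their own number, a hint from the data and not the design. Label numbers within an organ gave 1 of 5 pairs over 0.1 in each organ. Counts were low for Npc1l1 in both organs and for Fdps in WAT (median 34 reads). The part of depth in this, and for Fdps that of the exons shared with Gm43738, was not tested.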
